A study of Mus musculus with 3 samples.

Results

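The promoters described here are those of liver type genes: serpins, cytochrome P450s, apolipoproteins, UDP-glucuronosyltransferases, sulfotransferases and the plasma proteins albumin, transthyretin, haptoglobin and fibrinogen. They were matched by gene name. Of 157 matching gene names, 146 had at least 3 usable probes on every array and are the members described, among 16164 promoters in all. The 11 names with fewer probes (Cyp3a16, Cyp4a10, Cyp4a12, Cyp4a12b, Serpina1e, Serpinb3a, Serpinb3b, Serpinb9e, Serpinb9g, Ugt2a1 and Ugt2b38) were left out. The members held a median of 13 probes each, from 3 to 23, over a median span of 3261 bp.

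All 3 arrays came from C2C12, an established line of mouse myoblasts, arrested in G0, a reversible exit from the cell cycle, in medium made viscous with 2% methylcellulose. Per the labels, chromatin was fixed with 1% formaldehyde and precipitated with antibodies to PRDM2 (2 arrays) or to H3K9me2 (1 array). Every array carried IP DNA in Cy5 and its own input DNA in Cy3. No array of a control antibody or of cycling cells was used here. Each value below is a log2 ratio of IP over input, as the mean over a promoter's probes, relative to the median probe of its array. Enriched and depleted mean above and below that median probe at a limma adjusted p under 0.05. Errors given with PRDM2 means are SD (n = 2); H3K9me2 was measured without replicate. Separate cultures for the PRDM2 pair are not named in the labels, so p-values reflect only how far these samples spread. Precision is limited by how few arrays there are.

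PRDM2, also called RIZ, is a zinc finger protein with a PR domain, a kind of domain that in some proteins methylates histone H3 on lysine 9. H3K9me2, the dimethylated form of that lysine, is a mark of silent chromatin. Hepatocytes secrete apolipoproteins, serpins and other plasma proteins, and they use P450 enzymes to oxidise drugs, sterols and steroids, which glucuronosyltransferases and sulfotransferases then conjugate. In a myoblast most of these genes are outside the cell's program. The families also hold genes of other tissues, such as Cyp46a1 of neurons, the Serpinb genes of skin and blood cells, and Cyp51, a step of cholesterol synthesis in all cells. The arrays measured DNA and gave no level of RNA, so whether a member was expressed was not measured.

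Most of these promoters start in DNA with few CG dinucleotides, and the sequences show the contrast with the few that do not. The 250 bases before the start site are given for 4 members from the RefSeq promoter windows of build GRCm38.p6, 5′ to 3′ on the gene's strand, with each CG in capitals. Cyp46a1, the cholesterol 24-hydroxylase, at chr12:108334066-108334315 (plus strand), was the member with the highest PRDM2 ratio. Cyp51, lanosterol demethylase, at chr5:4104698-4104947 (minus strand), is as rich in CG but had a promoter mean near 0. Alb, the gene of serum albumin, at chr5:90460620-90460869 (plus strand), and Serpini2, a serpin of the pancreas, at chr3:75270079-75270328 (minus strand), stand for the CG-poor majority. The stretches hold 23, 20, 2 and 1 CG dinucleotides in the order given.
Cyp46a1: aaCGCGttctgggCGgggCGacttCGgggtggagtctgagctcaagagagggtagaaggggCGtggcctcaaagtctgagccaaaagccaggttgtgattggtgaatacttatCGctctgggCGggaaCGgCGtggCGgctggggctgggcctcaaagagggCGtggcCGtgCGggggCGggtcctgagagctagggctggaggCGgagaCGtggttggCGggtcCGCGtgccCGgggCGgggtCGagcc
Cyp51: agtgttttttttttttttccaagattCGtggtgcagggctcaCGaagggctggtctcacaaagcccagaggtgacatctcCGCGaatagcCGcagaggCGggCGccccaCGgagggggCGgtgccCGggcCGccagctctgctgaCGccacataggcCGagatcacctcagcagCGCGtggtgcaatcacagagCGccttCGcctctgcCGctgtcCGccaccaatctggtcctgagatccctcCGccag
Alb: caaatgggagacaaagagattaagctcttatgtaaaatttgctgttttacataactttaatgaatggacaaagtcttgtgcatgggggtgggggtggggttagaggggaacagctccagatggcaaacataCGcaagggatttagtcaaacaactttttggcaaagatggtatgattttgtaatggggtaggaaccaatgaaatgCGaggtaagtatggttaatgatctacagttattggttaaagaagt
Serpini2: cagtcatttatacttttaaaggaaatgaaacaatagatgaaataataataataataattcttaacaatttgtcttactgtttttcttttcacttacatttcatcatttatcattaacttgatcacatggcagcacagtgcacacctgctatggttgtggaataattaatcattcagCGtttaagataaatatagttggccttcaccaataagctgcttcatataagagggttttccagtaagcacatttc

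Of the 146 members, 34 were enriched for PRDM2 IP over input (23.3%), 2 were depleted and 110 were not called, beside 46.9% enriched and 1.08% depleted among all promoters. At an unadjusted p under 0.05, 41 members lay above 0 and 4 below. The median log2 PRDM2 ratio over members was 0.40 on array 1 and 0.08 on array 2, with a mean over arrays of 0.24, beside 0.58, 0.43 and 0.50 over all promoters. Members thus lay lower than promoters as a whole on both arrays, and their shift in the median was -0.27, which became 0.07 after removal of the GC trend from each array. On both PRDM2 arrays 79 members (54.1%) were above 0 and 22 (15.1%) below, beside 73.3% and 10.1% of all promoters. The 34 enriched members were above 0 on both arrays. Array 1 was the higher for 115 members (78.8%), against 63.6% of all promoters. Across members the PRDM2 arrays correlated at r = 0.53, and across all promoters at r = 0.73; promoters of an array share its hybridisation and are not replicates.

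The split of calls followed the point taken as 0 and the way a promoter was summarised. With each array centred on its median promoter, the median of all promoters moved from 0.50 to 0.00. Then 3 members were enriched (2.05%) and 25 depleted, beside 17.2% enriched and 2100 depleted among all 16164 promoters. The 3 were Apoc1, Cyp46a1 and Serpina3c. With loess within the array, 18 were enriched (12.3%) and 17 depleted, and 8 of the 34 remained enriched. Among all promoters 20.3% were enriched with loess, and 1140 were depleted. With the GC trend removed 25 members were enriched (17.1%), beside 13.4% of all promoters. With normexp background correction or with the median over probes in place of the mean, limma called 0 members either way, beside 9 above and 9 below 0, and 11 above and 10 below, at an unadjusted p under 0.05. Among all promoters, normexp gave 0 calls either way, and the median over probes gave 5.69% enriched and 14 depleted. The calls named below therefore describe the mean of processed signals relative to the median probe.

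Secreted plasma proteins, the most abundant products of the liver, lay close to the median probe. Of 6 promoters, haptoglobin (Hp), the scavenger of free haemoglobin, was enriched (16.7%, beside 46.9% of all promoters), and the other 5 were not called. Hp had log2 PRDM2 ratios of 1.30 and 0.34 on arrays 1 and 2, a mean of 0.82 ± 0.68 (limma, adjusted p = 0.0167), and -0.08 under loess. Array 2 lay far below array 1 there. Alb stood at -0.14 and 0.12, a mean of -0.01 ± 0.19 (limma, adjusted p = 0.963). Only 7 and 11 of its 19 probes had PRDM2 IP signal well above background. The fibrinogen genes Fga, Fgb and Fgg, which encode the chains of the clot protein, had means of -0.08 ± 0.16, 0.16 ± 0.42 and 0.21 ± 0.43. Transthyretin (Ttr), the carrier of thyroid hormone, had 0.24 ± 0.07. None of these 5 differed from the median probe beyond the limma threshold.

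Of the apolipoproteins 6 of 12 were enriched (50%), near the 46.9% of all promoters, and none was depleted (7 above and 1 below 0 at an unadjusted p under 0.05). Their median log2 PRDM2 ratio was 0.58 and their median GC content 45.9%, beside 41.1% for members as a whole. Of the other promoters with 45 to 50% GC, 74.4% were enriched. Apoc1, a small exchangeable apolipoprotein, had 1.53 and 1.00, a mean of 1.27 ± 0.38 (limma, adjusted p = 0.000794). Apof, an inhibitor of lipid transfer protein, had 1.88 and 0.46, so that its mean of 1.17 ± 1.00 rested mostly on array 1. Apoa1, the main protein of HDL, had 1.36 and 0.49 (0.93 ± 0.62), and Apoc4 had 1.15 and 0.50 (0.82 ± 0.47). Apoe, the ligand for clearance of remnants, had 0.67 and 0.65 (0.66 ± 0.01). Its arrays differed least among the 6. Apom, a carrier of sphingosine phosphate in HDL, had 0.28 and 0.99 (0.64 ± 0.50) and turned to -0.37 with normexp. Apoc2, the activator of lipoprotein lipase, missed the threshold at 0.53 ± 0.43 (limma, adjusted p = 0.0633), and Apoa5 (0.35 ± 0.21) and Apoh (0.20 ± 0.60) were not called.

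The gene clusters of the apolipoproteins had unlike counts. In the Apoc2, Apoc4, Apoc1 and Apoe cluster of chromosome 7, 3 of 4 promoters were enriched, beside 46.9% of all promoters. In the Apoa1, Apoc3, Apoa4 and Apoa5 cluster of chromosome 9, with nearly the same median GC content (46.4% against 46.3%), 1 of 4 was. Apoc3, an inhibitor of lipoprotein lipase, stood at 0.03 and -0.02 (mean 0.00 ± 0.03), and Apoa4, an intestinal apolipoprotein, at -0.21 and -0.55 (-0.38 ± 0.24). Set against the median of other promoters of like GC content, Apoc3 and Apoa4 were the lowest of all members, at -1.19 and -1.09. Apoa2, another HDL protein, on chromosome 1, had -0.24 and -0.79 (-0.52 ± 0.39; limma, adjusted p = 0.0655). The difference between the clusters was not tested.

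**Figure D1:**
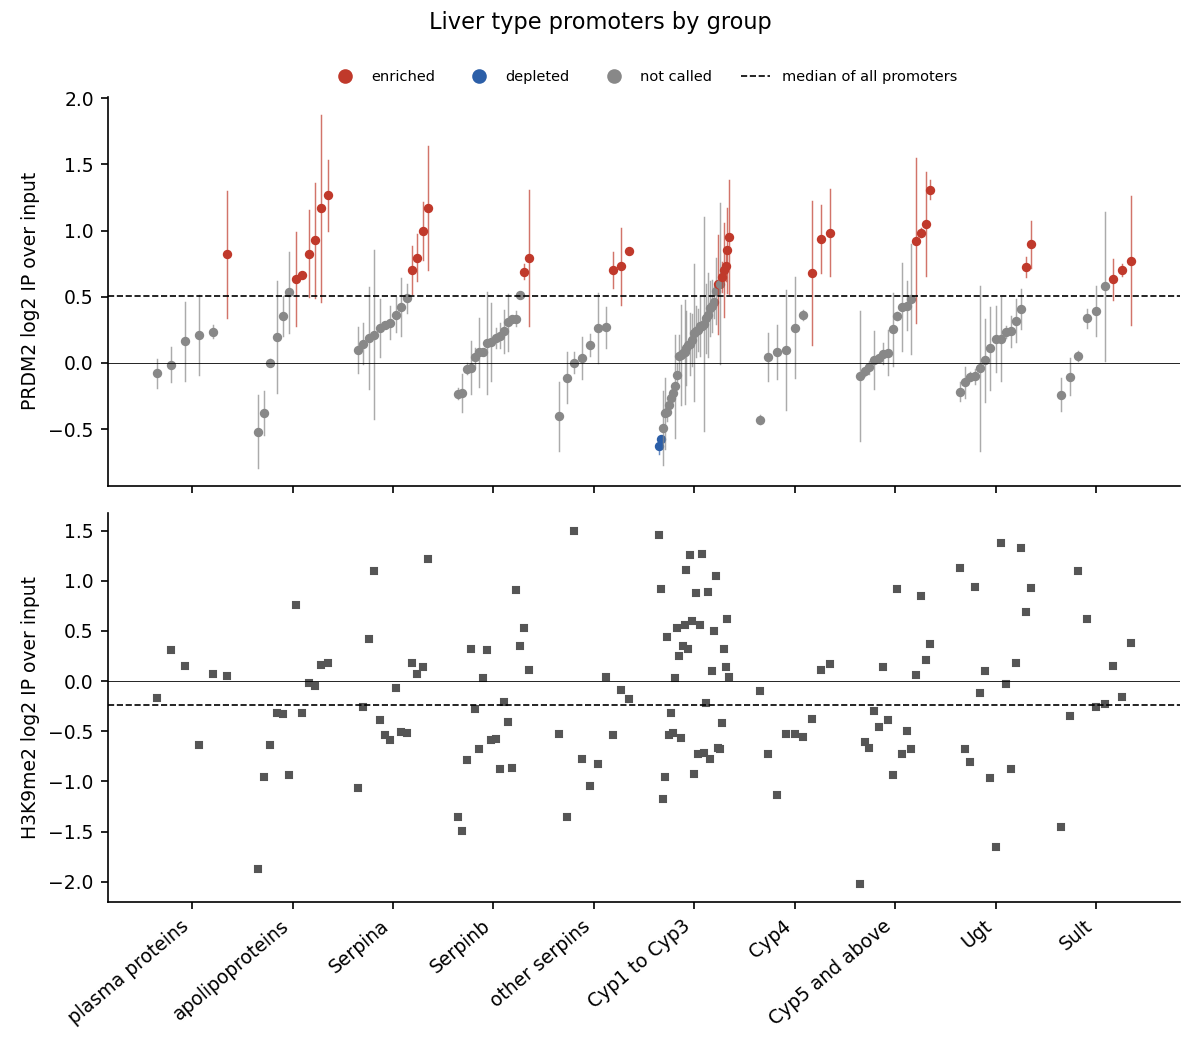
Log2 IP over input of the 146 members by group. Upper panel: PRDM2, each point the mean of 2 arrays and each line the span between them, with colour giving the limma call. Lower panel: H3K9me2, 1 array. Dashed lines mark the medians of all promoters (0.50 and -0.23); most members lie under the upper dashed line, and 34 are called enriched.

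Serpins are mostly inhibitors of serine proteases, and their promoters are counted by clade. The 14 Serpina promoters all lay in a single cluster of chromosome 12 that codes for antitrypsin and antichymotrypsin relatives. Of these, 4 were enriched (28.6%), beside 46.9% of all promoters. The highest was Serpina3c with 1.64 and 0.70 (1.17 ± 0.66; limma, adjusted p = 0.00247). Serpina1f had 1.21 and 0.77 (0.99 ± 0.31), and Serpina12, the adipokine vaspin, had 0.97 and 0.62 (0.79 ± 0.25). Serpina3m was the other call, at 0.70 ± 0.25. All 14 Serpina means were above 0, and the lowest was Serpina9, a serpin of germinal centre B cells, at 0.10 ± 0.25. The major antitrypsin genes Serpina1a to Serpina1d were not analysed here.

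The Serpinb genes, intracellular serpins of epithelia and leukocytes, had 2 of 18 promoters enriched (11.1%), beside 46.9% of all promoters. Serpinb3d had 0.74 and 0.63 (0.69 ± 0.08), and Serpinb6c had 0.28 and 1.31 (0.79 ± 0.73) from only 4 probes. The lowest were Serpinb9d at -0.23 ± 0.06 and Serpinb6b at -0.23 ± 0.21. Of the 10 serpins of other clades, 3 were enriched (30%). Serpinf1, the antiangiogenic factor PEDF, had 0.83 and 0.86 (0.85 ± 0.02), and Serpinf2, the plasmin inhibitor, had 1.02 and 0.44 (0.73 ± 0.41). Serpinc1, antithrombin, had 0.84 and 0.57 (0.70 ± 0.19; limma, adjusted p = 0.0143), but -0.05 with normexp. Among serpins known from mesenchymal cells, Serpine2, protease nexin, stood at 0.26 ± 0.38 and Serpinh1, the collagen chaperone HSP47, at 0.04 ± 0.22, and neither was called.

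The P450 families that handle drugs and foreign compounds, Cyp1 to Cyp3, held 37 members. Beside 46.9% enriched and 1.08% depleted among all promoters, 6 of these were enriched (16.2%) and 2 depleted. Their median log2 PRDM2 ratio was 0.39 on array 1 and -0.01 on array 2. Cyp2a4, a steroid hydroxylase, had 1.38 and 0.52 (0.95 ± 0.61), and Cyp2f2, an enzyme of airway club cells, had 1.17 and 0.53 (0.85 ± 0.46). Cyp2s1 had 0.62 and 0.85 (0.73 ± 0.16), and Cyp2c55 had 0.53 and 0.76 (0.65 ± 0.16). The main drug oxidases lay at the edge. Cyp3a11 had 1.06 and 0.35 (0.70 ± 0.50; limma, adjusted p = 0.0232), and Cyp1a2, which oxidises caffeine, had 0.22 and 0.97 (0.59 ± 0.53; limma, adjusted p = 0.0498). Cyp2e1, which oxidises ethanol, stood at -0.30 and -0.23 (-0.27 ± 0.05) and was not called, nor was Cyp1b1 at -0.22 ± 0.02.

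The 2 depleted members were neighbours in the Cyp2c cluster of chromosome 19. Cyp2c37 had -0.69 and -0.57 (-0.63 ± 0.08; limma, adjusted p = 0.0217), and Cyp2c54 had -0.56 and -0.59 (-0.58 ± 0.02; limma, adjusted p = 0.0319). On both promoters the arrays lay close together and below the median probe. Their PRDM2 IP signal was hardly measurable, well above background at 1 and 2 of 10 probes for Cyp2c37 and at 0 and 1 of 4 for Cyp2c54. With normexp their means turned to 0.37 and 0.34. Neither was called with loess or with the GC trend removed.

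In the Cyp4 family, fatty acid hydroxylases, 3 of 9 promoters were enriched (33.3%), beside 46.9% of all promoters. Cyp4x1, a P450 of brain, had 1.31 and 0.66 (0.99 ± 0.46), Cyp4f15 had 1.19 and 0.68 (0.94 ± 0.36), and Cyp4f16 had 1.22 and 0.14 (0.68 ± 0.77). Cyp4a14, a target of the fatty acid receptor PPAR alpha, was the lowest at -0.43 ± 0.05 (limma, adjusted p = 0.0962).

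Among the 16 P450s of sterol, bile acid, steroid, vitamin and orphan pathways, 4 were enriched (25%), beside 46.9% of all promoters. Cyp46a1 had 1.24 and 1.38, a mean of 1.31 ± 0.10 (limma, adjusted p = 0.000464), the highest mean of all members. Cyp39a1, which takes up the product of Cyp46a1 on the way to bile acids, had 0.95 and 1.02 (0.98 ± 0.05; limma, adjusted p = 0.00214). On these 2 promoters both arrays were high and close together. Cyp27b1, which activates vitamin D, had 1.44 and 0.65 (1.05 ± 0.56). Cyp21a1, the adrenal 21-hydroxylase, had 1.55 and 0.30 (0.92 ± 0.88), and fell to -0.12 with normexp and -0.39 with loess. The enzymes of hepatic bile acid synthesis were not called: Cyp7a1, the rate-limiting one, had 0.35 ± 0.05, Cyp8b1 0.25 ± 0.39, Cyp27a1 0.02 ± 0.31 and Cyp7b1 -0.03 ± 0.07. Nor were the steroid enzymes Cyp17a1 (0.49 ± 0.59), Cyp19a1, aromatase (0.04 ± 0.03), and Cyp11b2, aldosterone synthase (-0.10 ± 0.69). The retinoic acid hydroxylases Cyp26a1 and Cyp26b1 had 0.43 ± 0.26 and 0.42 ± 0.47, and Cyp51 had -0.06 ± 0.05.

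Among the conjugating enzymes, 2 of 15 Ugt promoters were enriched (13.3%), Ugt2b35 with 1.08 and 0.72 (0.90 ± 0.25) and Ugt2b37 with 0.80 and 0.65 (0.73 ± 0.11). None of the 5 promoters at the Ugt1a locus was called; these are alternative first exons, and Ugt1a1, which conjugates bilirubin, had 0.18 ± 0.35. Of 9 Sult promoters, 3 were enriched (33.3%), beside 23.3% of members and 46.9% of all promoters. Sult5a1 had 1.26 and 0.29 (0.77 ± 0.69), Sult4a1, a brain sulfotransferase, had 0.75 and 0.65 (0.70 ± 0.06), and Sult1b1 had 0.78 and 0.48 (0.63 ± 0.22). The estrogen sulfotransferase Sult1e1 stood at 0.05 ± 0.06 and the phenol sulfotransferase Sult1a1 at 0.39 ± 0.27, both uncalled.

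GC content moved with both signals, and the members are AT-rich. Median probe GC content was 41.1% over members and 43.9% over all promoters. Among members under 40% GC, 7 of 56 were enriched (12.5%), close to the 11.6% of other promoters in that band. From 40 to 45% it was 17 of 67 (25.4%) against 33.3%, and from 45 to 50% it was 9 of 22 (40.9%) against 74.4%. The only member above 50% GC, Sult4a1, was enriched, as were 96.2% of other promoters there. Members thus fell furthest behind other promoters in the GC-richer bands, a gap that was not tested. Across members GC content and the PRDM2 mean correlated at r = 0.33, and across all promoters at r = 0.64. Set against the median of other promoters in the same of 20 GC classes, the median member offset was 0.05 on array 1 and -0.14 on array 2. On both arrays 45 members lay above that level and 53 below, so that the median member was not set apart from promoters of like GC content by more than the arrays differed.

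Single members stood well away from promoters of like GC content. The largest offsets upward of the mean PRDM2 ratio were 0.85 for Ugt2b35, 0.79 for Cyp39a1, 0.75 for Serpinb6c, 0.71 for Cyp46a1 and 0.68 for Cyp4f15. Downward, after Apoc3 and Apoa4, came Cyp2d22 at -0.90, Apoa2 at -0.85 and Sult4a1 at -0.84. Sult4a1 was thus enriched against the median probe and low for its GC content of 52.0%. With the GC trend removed its value was -0.34.

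**Figure D2:**
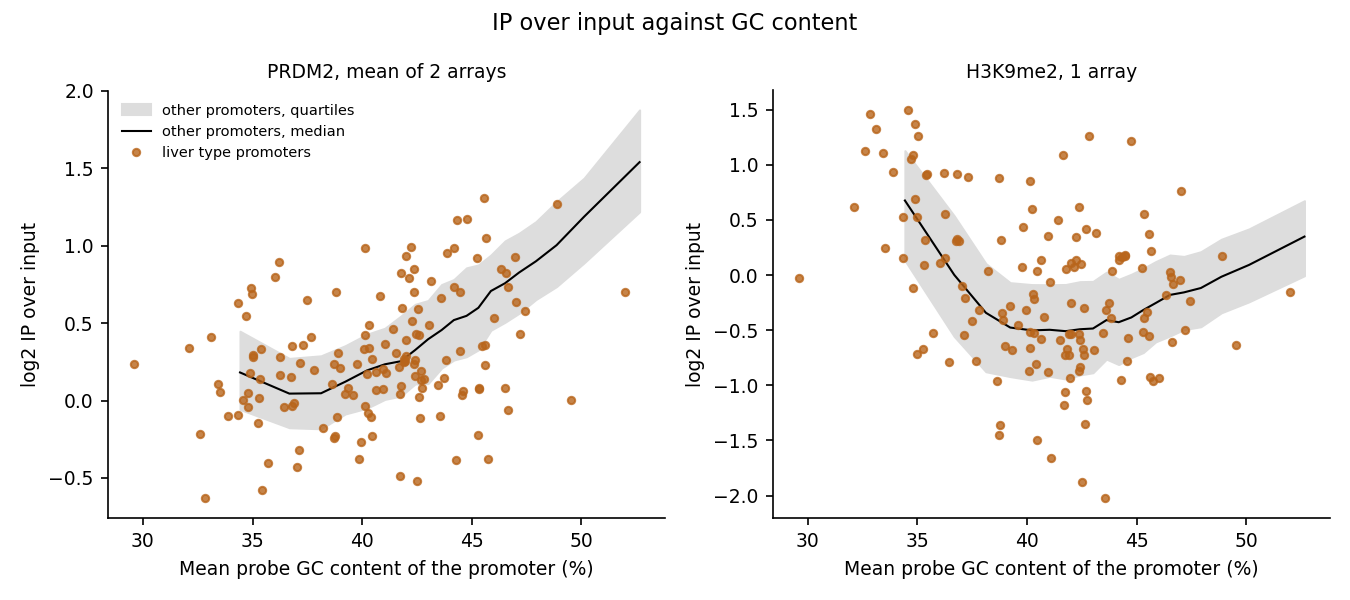
Log2 IP over input against mean probe GC content. Orange points are the 146 members; the line and band are the median and quartiles of other promoters in 20 GC classes. PRDM2 rises with GC content, from a class median of 0.05 near 38.1% to 1.54 near 52.7%, while H3K9me2 is high at the AT-rich end (0.68), low in the middle (-0.51) and higher again at 52.7% (0.35).

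RefSeq windows from 250 bases before to 50 after the start were matched for 115 members and 12558 promoters in all. Of the members 8 (6.96%) were CpG-rich, with an observed over expected ratio of at least 0.6, beside 56.1% of all. The letters TATAAA, the core of a TATA box, searched on both strands, were in 29.6% of member windows and 11.7% of all, and GGGCGG, the core of a GC box, in 23.5% and 53.2%. CCAAT was in 37.4% and 38.7%. A match describes letters only. The 8 CpG-rich members were Cyp46a1, Cyp51, Cyp1b1, Cyp20a1, Cyp2r1, Cyp26a1, Cyp4v3 and Serpine2. Of these, Cyp46a1 was enriched, 1 of 8 (12.5%), against 57.2% of other CpG-rich promoters. Among CpG-poor ones, 25 of 107 members (23.4%) and 33.9% of other promoters were enriched.

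By median, probes with at least 3 CG dinucleotides carried the highest PRDM2 ratios on these arrays, and members have few of them. Of the 1827 member probes 1.92% held so many, against 11.0% of the probes of other genes. The median log2 PRDM2 ratio of such probes was 0.85 in members and 2.54 elsewhere, at a median GC content of 53.3% and 60.0%. Probes without any CG made up 68.5% of member probes and had medians of -0.08 in members and -0.06 elsewhere. High ratios also occurred at member probes with no CG. The pair of member probes with the highest value on their lower PRDM2 array are printed first, then the pair with the lowest value on their higher array, each on the array's strand with CG in capitals.
Cyp2g1: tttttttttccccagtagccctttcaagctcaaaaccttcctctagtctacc
Cyp2c55: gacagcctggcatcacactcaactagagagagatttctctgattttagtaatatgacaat
Cyp8b1: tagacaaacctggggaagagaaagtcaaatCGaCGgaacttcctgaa
Serpinb7: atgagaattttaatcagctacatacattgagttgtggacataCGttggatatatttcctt
The Cyp2g1 probe had log2 PRDM2 ratios of 4.84 and 6.47, and the Cyp2c55 probe 4.71 and 6.66, with 1.45 and 2.88 on the H3K9me2 array. The Cyp8b1 probe had -2.46 and -2.50, and the Serpinb7 probe -2.36 and -2.29. These probes were picked on both PRDM2 arrays, so the likeness of the arrays there follows from the choice. The Cyp2c55 promoter mean leaned on its high probes, since the median over its probes was -0.31.

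Start sites could be placed on the array for 86 members and 8890 other genes. From 0 to 500 bases after the start, the median log2 PRDM2 ratio was 0.33 over members and 1.26 over other genes, and in the 500 bases before it was 0.20 and 0.55. The rise at the start site seen for other genes was thus small for members. Member probes there were poorer in GC, 44.1% against 51.6% after the start. With the GC trend removed, the medians after the start were 0.22 for members and 0.14 for other genes, so the order turned. Farther out, from 1500 to 1000 bases before the start, both were near 0 (-0.02 and 0.01). H3K9me2 differed there: members stood at 0.50 from 1500 to 1000 bases before and at 0.47 from 2000 to 1500 bases before, and other genes at -0.27 and -0.25. With the GC trend removed these member medians were 0.96 and 0.84, against 0.10 and 0.13. In the 500 bases before the start the medians were -0.35 for members and -0.11 for other genes, and -0.20 and -0.19 with the GC trend removed. These are medians over genes with a probe in the bin, from 1 array, and the gap was not tested. The bin from 1500 to 1000 bases before the start held 63 members, and that from 2000 to 1500 held 56. Leaving out the 11 members whose input was mostly at background on that array, the H3K9me2 medians upstream were 0.29 and 0.34, and the PRDM2 median after the start was 0.46.

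**Figure D3:**
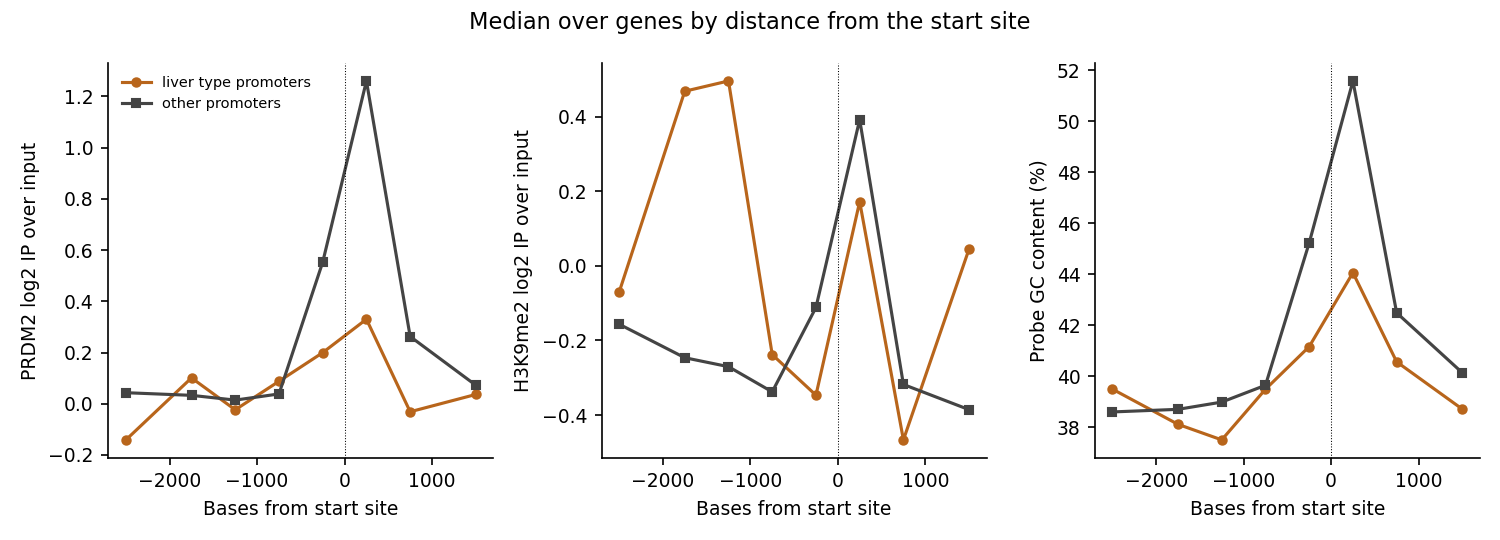
Medians over genes of PRDM2 ratio, H3K9me2 ratio and probe GC content by distance from the start site, for liver type promoters (86 genes placed) and other promoters (8890). Points sit at the middle of each distance bin. PRDM2 after the start is 0.33 for members and 1.26 for others, and H3K9me2 1500 to 1000 bases before it is 0.50 and -0.27.

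Along single promoters the signal was uneven. Cyp51, with a mean near 0, had a run of 4 probes from 79 bases before to 520 after its start with log2 PRDM2 ratios of 1.35, 0.48, 1.27 and 2.74 on array 1. On array 2 they had 1.71, 1.78, 3.23 and 3.44, and on the H3K9me2 array 0.85 to 1.22. The other 12 Cyp51 probes ran from -1.65 to 0.52 on array 1 and from -2.75 to -0.03 on array 2. GC content was 57.8, 48.9, 64.4 and 62.2% at the 4 probes and 36.7 to 55.6% at the other 12. Probes of other genes with at least 3 CG, at a median GC content of 60.0%, had medians of 2.54 for PRDM2 and 1.05 for H3K9me2. Whether the Cyp51 run goes beyond its GC content was not tested. Of the 4, the probe at 79 bases before the start lies in the stretch printed above and the others lie after the start. A further probe in that stretch, 184 bases before the start, had -0.29 and -0.23. The mean over all Cyp51 probes was -0.06. The most upstream of the 4 is this probe, on the strand opposite to the gene.
Cyp51 probe: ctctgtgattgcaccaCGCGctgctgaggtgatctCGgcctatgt
At Cyp46a1 no probe lay between 157 bases before and 398 after the start, so a run there could not be seen. Its highest probes lay 1971, 1726 and 912 bases before the start (4.27, 3.92 and 4.34 on array 1, and 2.93, 3.93 and 1.90 on array 2) and 1230 bases after it (4.68 and 1.40). The probes 398 and 746 bases after the start had 1.28 and 0.39 on array 1, and 2.24 and 1.19 on array 2. The probe 157 bases before the start had -1.55 and 0.51. At Alb 1 probe, 1276 bases before the start, had 4.26 and 3.68, and another at 567 bases before had 2.34 and 1.41, while the probe 94 bases before had -1.23 and -0.10. These stretches were singled out after their values were seen.

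**Figure D4:**
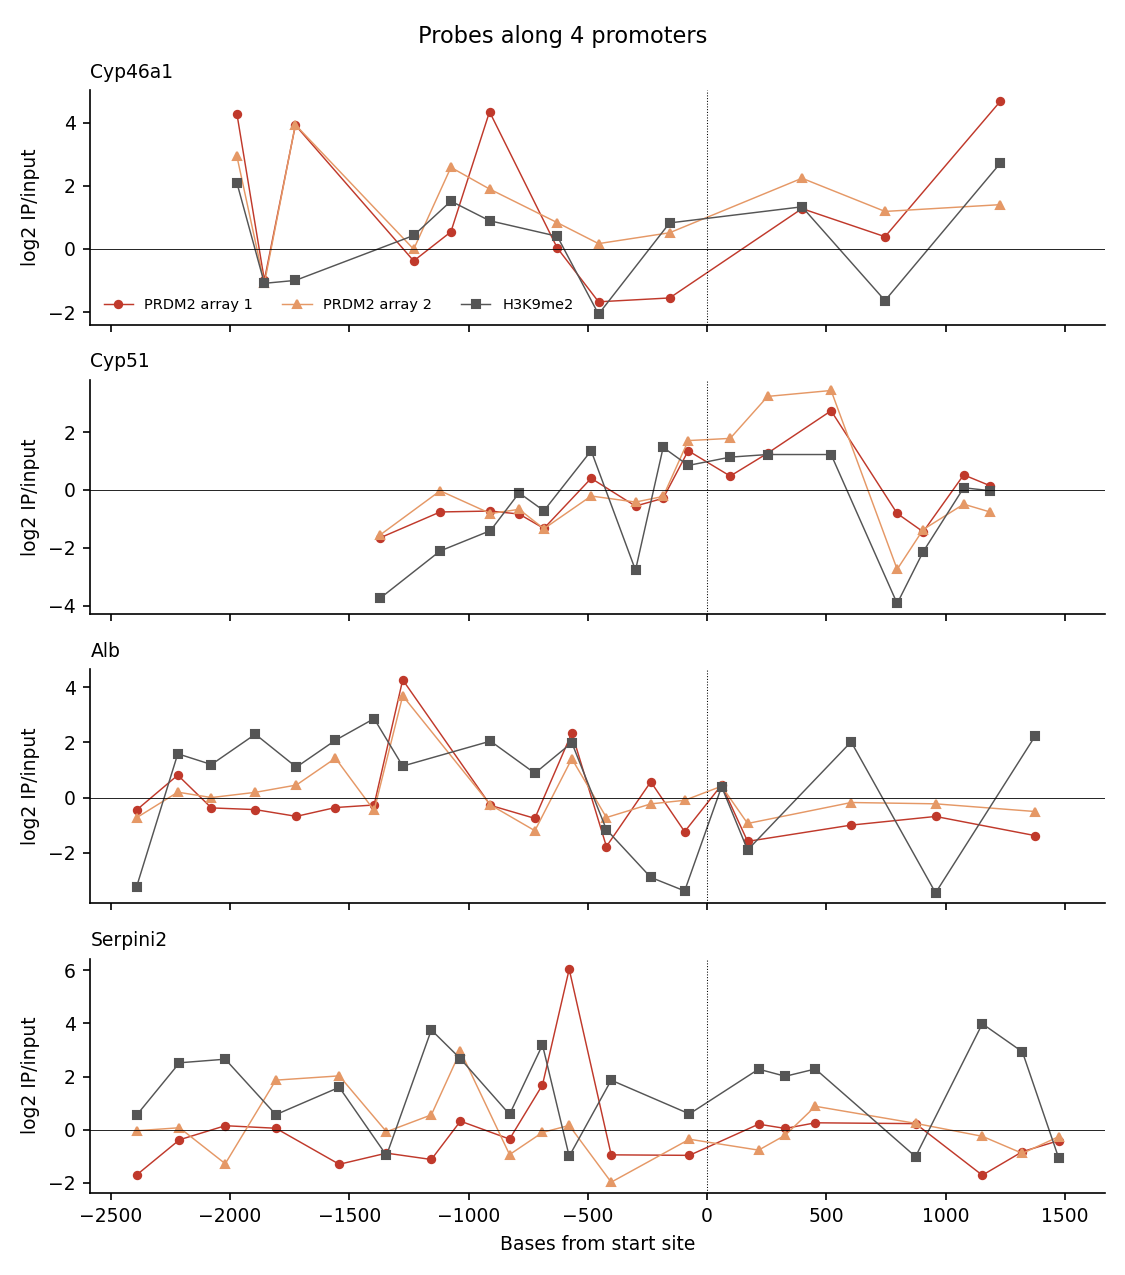
Log2 IP over input of each probe against its distance from the start site (dotted line) at Cyp46a1, Cyp51, Alb and Serpini2, for PRDM2 arrays 1 and 2 and the H3K9me2 array. Cyp51 shows a run of probes, of 48.9 to 64.4% GC, high on all 3 arrays around the start. Serpini2 shows H3K9me2 above both PRDM2 arrays at most probes.

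H3K9me2 over the members had a median log2 ratio of -0.16, beside -0.23 over all promoters. Of the members 65 of 146 were above 0, beside 5813 of all 16164 promoters. Unlike PRDM2, it was higher across members where GC content was lower (r = -0.36). Across all promoters r was 0.07, with class medians of 0.68 at the AT-rich end and 0.35 at the GC-rich end. The offset from promoters of like GC content had a median of 0.02. The highest members were Serpini2 at 1.498, Cyp2c37 at 1.46, Ugt2a2 at 1.37, Ugt2b1 at 1.33 and Cyp2c65 at 1.27. The lowest were Cyp11b2 at -2.03 and Apoa2 at -1.87. After Serpini2 these are genes of the Cyp2c and Ugt2 clusters. With 1 array these values have no replicate check.

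The input channel moved with these high H3K9me2 ratios. At 11 members (Serpini2, Cyp2c29, Cyp2c37, Cyp2c38, Cyp2c39, Cyp2c65, Ugt2a3, Ugt2b1, Ugt2b36, Sult1d1 and Sult1e1) input was well above background at under 50% of the probes on the H3K9me2 array. No member fell under that on a PRDM2 array. Among all promoters 449 (2.78%) had such low input on some array. The 11 members had a GC content of 29.6 to 35.03%, and their input on that array lay between -2.999 and -1.39 on the log2 scale against probes with like GC content. Their median H3K9me2 ratio was 1.09. Serpini2, for example, had input above background at 4 of 20 probes and input of -2.69 on that scale. Across members the H3K9me2 ratio correlated with the input level of its array at r = -0.59, where both share the input signal, and across all promoters at r = -0.39. Without the 11, the members' median H3K9me2 ratio was -0.25. That of all promoters was -0.23, with their own low-input promoters still included, so the sets are not alike. The members' median offset from like GC content was 0.02 both with and without the 11. How much of the ratio came from low input was not tested beyond that.

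**Figure D5:**
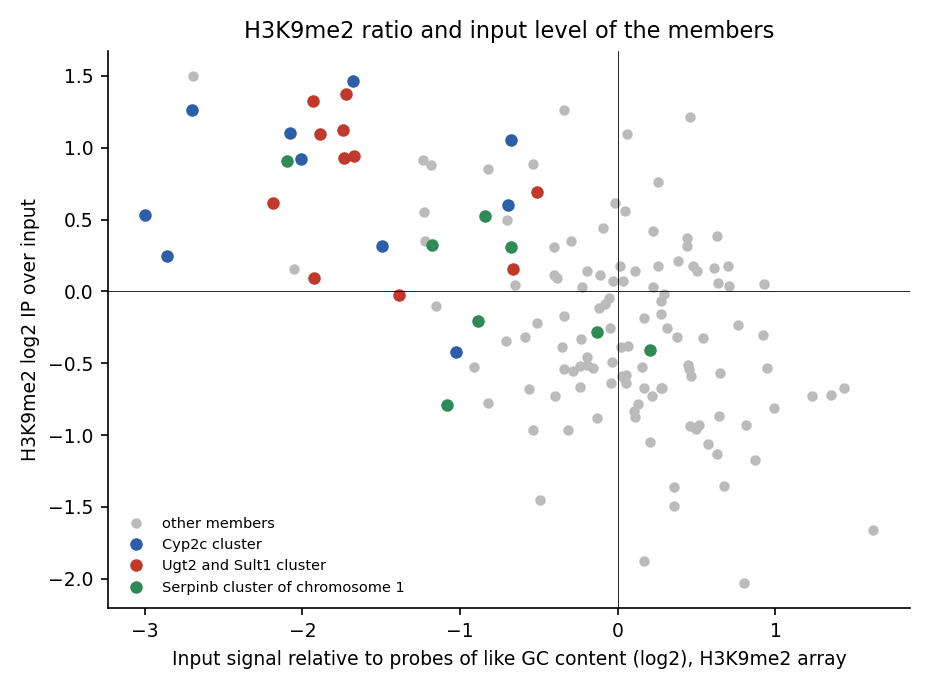
H3K9me2 log2 IP over input of each member against its input signal on the same array, relative to probes of like GC content (log2). The Cyp2c cluster (blue) and the Ugt2 and Sult1 cluster (red) hold most members with input under -1.39 and a ratio above 0; the Serpinb cluster of chromosome 1 (green) and the other members are given for comparison.

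Many members lie in clusters of related genes. Of the 14 clusters with at least 3 members no more than 1000000 bp apart, the Ugt2 and Sult1 cluster of chromosome 5 (11 members, from 87980087 to 88668559 in the array's coordinates, which name no build) had a median GC content of 34.3%. Its median log2 ratios were 0.23 for PRDM2 and 0.93 for H3K9me2, with 10 of 11 above 0 for H3K9me2. Promoters in the GC class with a median of 34.4% had an H3K9me2 median of 0.68 and a lower quartile of 0.13. The Cyp2c cluster of chromosome 19 (10 members, 39070348 to 40241862) had 0.12 and 0.76, with 9 of 10 above 0. Set against promoters of like GC content, the median H3K9me2 offsets of the Ugt2 and Cyp2c clusters were 0.26 and 0.31. In both, input on the H3K9me2 array was low, with medians of -1.73 and -1.84 against probes of like GC content. The H3K9me2 IP signal itself had medians of 0.25 and -0.10 on the same scale, beside 0.26 over all members. Input of the PRDM2 arrays was lower than at like probes too, at -0.81 and -0.60 in the Ugt2 cluster and at -0.70 and -0.45 in the Cyp2c cluster.

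The Cyp2d cluster of chromosome 15, with relatives of the human drug oxidase CYP2D6, had no enriched promoter among 5 (46.9% among all promoters). Its median PRDM2 ratio was 0.41 on array 1 and -0.32 on array 2, its H3K9me2 median -0.93 with 0 of 5 above 0, and its input was higher than at like probes on all 3 arrays (0.62, 0.95 and 0.82). The Ugt1a locus of chromosome 1 had an H3K9me2 median of -0.81, with input at 0.48. The Cyp2j cluster of chromosome 4, arachidonic acid epoxygenases, had H3K9me2 at 0.56 and 4 of 5 above 0, with input at -0.54. The Serpina cluster had a median PRDM2 ratio of 0.33, and H3K9me2 at -0.16 with input at 0.14. The Serpinb cluster of chromosome 1 had input at -0.86 with H3K9me2 at 0.05, and the fibrinogen cluster had input at -0.34 with H3K9me2 at -0.17. Set against promoters of like GC content, the median H3K9me2 offsets of the Serpinb cluster of chromosome 1 and the fibrinogen cluster were 0.13 and 0.15. The part of low input in the ratio was not tested. Near-identical neighbours could share DNA on the array, but only 2 of the 1827 member probes shared a stretch of 30 bases with a probe of another gene, 1 each in Cyp2c38 and Cyp2c39.

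PRDM2 was then set against H3K9me2 promoter by promoter by limma, in a fit of the 3 arrays that takes the unreplicated H3K9me2 array to vary as much as the PRDM2 pair. PRDM2 was higher at 30 members and lower at 10, beside 41.1% and 1.6% of all promoters. The H3K9me2 value lay under both PRDM2 arrays at 100 members (68.5%, against 85.2% of all promoters) and over both at 29 (19.9%, against 7.64%). The largest differences upward were at Cyp11b2 (1.93; limma, adjusted p = 0.0136) and Ugt1a1 (1.84; limma, adjusted p = 0.0125), with H3K9me2 at -2.03 and -1.66 and PRDM2 means of -0.10 and 0.18. The PRDM2 arrays of Cyp11b2 lay far apart, as its SD given above shows. Both differences came with a low H3K9me2 ratio on 1 array and without a PRDM2 call. Apoc2 followed at 1.47, Apoa2 at 1.35 and Cyp2a5 at 1.27.

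Downward, the differences were -2.09 at Cyp2c37, -1.498 at Serpini2, -1.498 at Cyp2c54, -1.35 at Ugt2b5 and -1.19 at Ugt2a2, each with a limma adjusted p under 0.05. At Ugt2b5 only 0 and 1 of 7 probes had PRDM2 IP signal well above background. Of the 10 promoters with PRDM2 lower, 6 were among the 11 with low input on the H3K9me2 array, and 4 were left without them. With normexp or with the median over probes limma called 0 members either way, beside 9 and 16 (normexp) or 19 and 27 (median) that were higher and lower before adjustment for multiple tests. With loess 0 members were higher and 29 lower, beside 436 and 1350 of all 16164 promoters. Of those promoters 0 were called either way with normexp or the median over probes.

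The transcription factors that drive the hepatic program are described beside their targets. Of 20 promoters of such factors and of the P450 reductase gene Por, 15 were enriched (75%) and 0 depleted, beside 46.9% of all promoters; 16 lay above 0 and 0 below at an unadjusted p under 0.05. Their median log2 PRDM2 ratio was 0.80 at a median GC content of 46.3%. Among promoters outside the members with 45 to 50% GC, 74.4% were enriched. Cebpb, a bZIP factor of liver and fat, had 2.41 and 2.36 (2.38 ± 0.03), and Por, the electron donor of microsomal P450s, had 1.88 and 1.60 (1.74 ± 0.19). The nuclear receptors Nr1i2 (PXR), which induces drug-metabolising P450s, at 0.05 ± 0.12, and Nr1h4 (FXR), the bile acid sensor, at 0.16 ± 0.18, were the lowest. The median offset from promoters of like GC content was 0.15 for the regulators and -0.03 for the members, and the difference was not tested.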

How the data were processed

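The arrays were a custom Agilent 2-colour design with probes of 45 to 60 nt. The processed intensities were made by the authors with Agilent Feature Extraction 10.5.1.1, per the file headers, with background subtraction and dye normalization; the raw mean and background intensities were also deposited. The log10 ratios and the well-above-background, outlier and control flags (other values) are those of the deposited scanner files. The authors' deposited values per probe, log2 ratios whose exact scale and centring are not stated and whose column medians were 0.12, 0.10 and 0.28, served as an alternative only. The probe coordinates name no genome build.

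For 237203 probes, red over green processed intensity was taken as log2, without outlier spots (773, 107 and 218), and the median probe of an array (-0.91, -0.80 and -0.27) was set to 0. Input was well above background at 97.6%, 98.8% and 88.5% of member probes, and IP at 69.4%, 67.7% and 76.5%. Probes of 1 gene name were averaged, split at gaps over 10000 bp, with at least 3 probes on every array. PRDM2 against 0 and PRDM2 minus H3K9me2 were tested with limma 3.58.1 in R 4.3.3 (lmFit and eBayes) over 16164 promoters, with Benjamini-Hochberg adjustment. Tables were handled in data.table (version 1.17.8) and pandas 2.3.3 (numpy 2.4.6, Python 3.11.15), and plots drawn in matplotlib 3.10.9. The fits were tested on simulated data.

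The members, gene groups, list of regulators and the rule for names were chosen with earlier results of these data known. The rule took fixed genes of each group, the 3 highest and 2 lowest of each other group, depleted members, and the largest H3K9me2 values, differences, GC offsets and low inputs; other members named, such as Cyp2c55, Serpina3m, Cyp2g1, Serpinb7, Cyp20a1 and Cyp2r1, were chosen after their values were seen. The value of 1 member is not reported here. Of the member names 145 are current symbols and 1 is a synonym. Alternatives were the centring, background correction, loess, GC trend, median over probes, bright input, at least 8 probes, deposited log2 values, variance trend and leaving out each PRDM2 array.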

Additional observations from a re-analysis of the deposited data

Results flagged for a closer look

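At 7 promoters called for PRDM2, both PRDM2 arrays lay on one side of 0 and the H3K9me2 array on the other, and the difference between PRDM2 and H3K9me2 was itself past the threshold, by the difference term of limma on 3 arrays (adjusted p under 0.05). The H3K9me2 side is a lone array in each case. Among all promoters 46.9% were enriched and 1.08% depleted for PRDM2, and 41.1% and 1.6% had PRDM2 above and below H3K9me2. The median H3K9me2 ratio of all promoters was -0.23. How many of all promoters share the full pattern was not counted.

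The depleted members lay below H3K9me2. Cyp2c37 had a difference of -2.09 (limma, adjusted p = 0.0106), with PRDM2 at -0.69 and -0.57 and H3K9me2 at 1.46, and Cyp2c54 had -1.498 (adjusted p = 0.0143), with -0.56, -0.59 and 0.92. At both, input on the H3K9me2 array was well above background at no more than 50% of the probes, 3 of 10 and 2 of 4.

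The other 5 lay above H3K9me2. Cyp1a2 differed by 1.26 (limma, adjusted p = 0.0294), Serpinc1 by 1.24 (adjusted p = 0.0223), Cyp2c55 by 1.07 (adjusted p = 0.033), Serpinf1 by 1.03 (adjusted p = 0.035) and Apoe by 0.98 (adjusted p = 0.0413). Their H3K9me2 ratios ran from -0.67 to -0.18.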

How the results depend on the processing

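The cause of the changes below was not tested. The 34 enriched members became 3 with the median promoter as 0, 18 with loess, 0 with normexp and 0 with the median over probes; the 2 depleted became 25, 17, 0 and 0. Depleted members were 1 with the GC trend removed, with bright input, with the value table and without the members of dim input (an alternative chosen after seeing the data), and 5 with a variance trend. In the first 3 of these it was another gene: Apoc3 (-0.76), Ugt2b5 (-0.69) and Cyp4a14 (-0.58) in that order. Cyp2c37 was called in none of those 3, and Cyp2c54 neither with the GC trend removed nor with the value table. Of the 34, 22 remained enriched with the GC trend removed, 33 with bright input, 27 with the value table and 34 with a variance trend, and all 25 that have at least 8 probes did. With the GC trend removed 25 members were enriched in all (17.1%), beside 13.4% of all promoters, so the order turned. The shares were 25.5% against 48.2% with bright input, and 19.9% against 41.1% with the value table. The PRDM2 shift of -0.27 was -0.071 with normexp, -0.075 with loess, -0.12 with the median over probes and 0.071 with the GC trend removed; the H3K9me2 shift of 0.07 became -0.11 with normexp and 0.32 with the GC trend removed.

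Members with PRDM2 above H3K9me2, 30 as reported, were 0 with the median promoter, normexp, loess or the median over probes. They were 2 with the GC trend removed and 11 with the value table. Among all promoters these counts were 119, 0, 436, 0, 380 and 3662 in the same order, beside 6645 as reported. Those below, 10 as reported, were 0 with normexp or the median over probes, 29 with loess, 6 with the GC trend removed, bright input or the value table, and 4 without the members of dim input. Leaving out each PRDM2 array gave shifts of -0.35 to -0.18 and offsets from like GC of -0.14 to 0.05, with no test and no count. No paired analysis was possible because the H3K9me2 array carries no replicate number. The depth of an array is its signal over background, which was low for PRDM2 IP at AT-rich promoters.

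Single means turned sign. With normexp these were Apom -0.37, Cyp1a2 -0.28, Cyp21a1 -0.12, Cyp2a4 -0.12, Cyp2c37 0.37, Cyp2c54 0.34, Serpina3m -0.073, Serpinc1 -0.055 and Sult4a1 -0.44. With loess they were Apoc3 -0.66, Apoc4 -0.068, Apom -0.028, Cyp21a1 -0.39, Cyp27a1 -0.80, Cyp2a4 -0.29, Cyp2a5 -0.70, Hp -0.080, Serpina9 -0.43, Sult4a1 -0.31 and Ugt1a1 -1.77. With the GC trend removed they were Apoc3 -0.76 and Sult4a1 -0.34, and with the median over probes Cyp2c55 -0.31, Cyp4f16 -0.25 and Sult5a1 -0.032.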
